A study of Homo sapiens with 3 samples.

Results

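HIF targets and glycolysis genes were examined in T24 cells, a human bladder carcinoma line, as 48 genes of the 58381 in the deposited count table. They comprised subunits of the hypoxia-inducible factors (HIFs) and their oxygen sensors, genes known to be induced in low oxygen, and the enzymes and transporters of glycolysis. The 48 members were chosen by name with earlier results from these same libraries known, and the values used in that choice, the log2 ratios between the 3 libraries, are therefore given as a description with no test. The 22 glycolysis members (16 enzymes and 6 transporters or regulators) were kept apart from the other 26 HIF members throughout.

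RNA was sequenced from 1 library in each of 3 conditions. Ctrl cells were not irradiated, RT cells received 10 Gy from a caesium source, and RT + shHDAC6 cells received 10 Gy and carried a lentiviral shRNA against the deacetylase HDAC6. The labels describe a control pLKO.1 vector and puromycin selection and mark Ctrl as empty, whereas the study's results call the irradiated comparator parental cells. If Ctrl and RT were not infected, infection and selection cannot be told apart from the shRNA. The time between irradiation and RNA extraction and the oxygen conditions of this experiment are not given in the sources used here. There was no unirradiated library with the shRNA, so an effect of the shRNA alone could not be measured.

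With 1 library per condition, the differences carry no check by replicates, and p-values were not computed. The libraries held between 35424086 and 41811165 read counts. Each comparison is given as a log2 ratio after TMM scaling (trimmed mean of M values), with 95% limits that cover counting error only and not the variation between cultures. A gene was called higher or lower when it differed at least 2-fold, a log2 ratio of at least 1 in size, with at least 10 counts in either library. Levels within a gene are given in CPM, read counts relative to the TMM-scaled library size, and levels between genes in TPM, which also divide by exon length. In bulk RNA a lower level in each cell and fewer cells that express the gene cannot be told apart. HDAC6 itself had 3098 counts in Ctrl, 2383 after RT and 2170 in RT + shHDAC6, so that its level with the shRNA was 87.2% of that in RT (log2 ratio -0.20, interval -0.28 to -0.11). The study reported the knockdown in T24 cells from qPCR and Western blotting, which are other measurements than these libraries. Each comparison with RT + shHDAC6 thus rests on a library with a small difference in HDAC6 RNA. Of the cell markers, 6 of 6 epithelial genes and 2 of 7 urothelial genes (GATA3 and PPARG) reached 100 counts in a library, whereas the uroplakins had between 0 and 18 counts, with UPK1B at 0 in both Ctrl and RT. The summed levels were 312 CPM in Ctrl, 414 CPM after RT and 339 CPM in RT + shHDAC6 for epithelial markers. KRT7 alone stood at 115 CPM after RT and 17.1 CPM in RT + shHDAC6 (log2 ratio -2.75), whereas the other 5 epithelial markers had ratios of 0.05 to 0.51 in that comparison. Urothelial markers summed to 82.3, 62.8 and 31.3 CPM. Leukocyte markers summed to 2.86 to 3.75 CPM (1 of 4 reached 100 counts), endothelial markers to 23.1 CPM in Ctrl, 14.5 CPM after RT and 19.2 CPM in RT + shHDAC6 (3 of 3), and fibroblast markers to 223, 153 and 183 CPM (4 of 4). The part of these marker differences in the results was not tested.

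In cells with enough oxygen, prolyl hydroxylases (EGLN1 to EGLN3) mark the HIF alpha subunits HIF1A and EPAS1 (HIF-2 alpha), and the VHL ubiquitin ligase then directs them to degradation. In low oxygen the alpha subunits persist, pair with ARNT and bind the core letters ACGTG or GCGTG near their targets, so that HIF activity is set largely at the protein level, which was not measured in these libraries. The targets raise glucose uptake and glycolysis, export acid and lactate, remove mitochondria and modify collagen. Glycolysis turns glucose into pyruvate and lactate in the cytosol, and many carcinoma cells run it at a high rate even with oxygen present.

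The promoters of 3 members that were called lower in RT and of both that were called higher are shown first, because the HIF core letters can be read in them directly. Windows from 250 bases before to 50 bases after the start site were available from RefSeq (GRCh38.p14) for 43 of the 48 members, 75 windows in all. Both cores were searched on both strands, and on the strand shown a core on the opposite strand reads CACGT or CACGC. Capitals mark each core, and a stretch of CACGTG holds ACGTG on both strands. The windows of CA9 (chr9:35673678-35673977), DDIT4 (chr10:72273674-72273973) and ANKRD37 (chr4:185396591-185396890) belong to members that were lower in RT, and those of ADM (chr11:10304823-10305122) and PLOD1 (chr1:11934467-11934766) to the members that were higher in RT. All are on the plus strand.
CA9: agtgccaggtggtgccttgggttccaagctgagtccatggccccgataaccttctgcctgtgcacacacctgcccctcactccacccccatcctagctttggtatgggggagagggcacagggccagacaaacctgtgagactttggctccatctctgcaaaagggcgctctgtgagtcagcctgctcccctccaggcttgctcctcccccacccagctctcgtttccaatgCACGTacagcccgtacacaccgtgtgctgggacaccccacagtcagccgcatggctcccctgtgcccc
DDIT4: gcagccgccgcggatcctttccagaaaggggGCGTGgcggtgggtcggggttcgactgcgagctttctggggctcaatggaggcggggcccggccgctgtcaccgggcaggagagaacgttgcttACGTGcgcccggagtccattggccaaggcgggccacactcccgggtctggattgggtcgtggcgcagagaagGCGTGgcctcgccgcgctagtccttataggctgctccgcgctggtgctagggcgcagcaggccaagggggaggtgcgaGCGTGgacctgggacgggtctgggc
ANKRD37: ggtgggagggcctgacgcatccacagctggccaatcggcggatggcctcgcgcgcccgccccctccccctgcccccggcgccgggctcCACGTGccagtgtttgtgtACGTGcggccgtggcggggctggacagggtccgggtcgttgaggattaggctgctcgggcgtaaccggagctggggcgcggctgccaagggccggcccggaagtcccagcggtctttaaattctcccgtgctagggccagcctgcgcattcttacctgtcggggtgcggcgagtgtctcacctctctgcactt
ADM: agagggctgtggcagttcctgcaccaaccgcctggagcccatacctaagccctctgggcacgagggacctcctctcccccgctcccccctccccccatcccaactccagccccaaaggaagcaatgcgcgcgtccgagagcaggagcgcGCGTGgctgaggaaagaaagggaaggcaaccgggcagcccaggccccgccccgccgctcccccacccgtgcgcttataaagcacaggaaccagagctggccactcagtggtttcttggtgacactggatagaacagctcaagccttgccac
PLOD1: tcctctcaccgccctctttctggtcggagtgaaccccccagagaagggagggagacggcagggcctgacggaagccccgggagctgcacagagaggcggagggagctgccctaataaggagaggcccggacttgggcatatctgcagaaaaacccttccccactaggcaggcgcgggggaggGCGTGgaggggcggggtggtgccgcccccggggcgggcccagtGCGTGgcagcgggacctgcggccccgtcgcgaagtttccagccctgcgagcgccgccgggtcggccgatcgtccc

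CA9 held 1 core, an ACGTG whose first base lay at -18 from the start site, and ANKRD37 held 3, all of them ACGTG. DDIT4 held 4 (1 ACGTG and 3 GCGTG). The members that were higher in RT also held cores, 1 GCGTG in ADM and 2 GCGTG in PLOD1. Of members called lower whose windows are not printed, PFKFB4 held 0 ACGTG and 1 GCGTG, and BHLHE40 held 4 ACGTG. MXI1 held 1 ACGTG and 3 GCGTG over 3 windows. The printed windows are a selection, and no link between the type of core and the direction is read. Across all 35116 promoter windows, 48.4% held either core (21.4% ACGTG, 36.5% GCGTG). The share was 72% of the 75 member windows, 85.7% of the 28 windows of other HIF members and 63.8% of the 47 windows of glycolysis members. Many of these genes are known as HIF targets, so the share describes the list, and a match is not evidence of binding in these cells.

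For RT against Ctrl, 13 of the 48 members had a log2 ratio above 0 and 35 had one below 0, with a median of -0.33 beside -0.06 over all genes. Over all genes with at least 10 counts, 9275 lay above 0 and 10992 below 0. With at least 1000 counts in either library, the median was -0.30 for 40 members and 0.09 over 7588 genes. CA9, DDIT4, NDRG1, BNIP3L, ANKRD37, BHLHE40, MXI1 and PFKFB4 were at least 2-fold lower in RT, and ADM and PLOD1 were at least 2-fold higher. These 8 lower members make up 16.7% of the list and the 2 higher members 4.17%. Among all 20267 genes with at least 10 counts in either library, 9.17% were called lower and 4.81% higher, and since the members were chosen with these ratios known, nothing is read from the difference. Most genes called lower had few counts. Among the 7588 genes with at least 1000 counts in either library, 0.633% were called lower and 5.1% higher, and of the 40 members at that depth 6 (15%) were lower and 2 (5%) were higher. At 1.5-fold, 12 members were lower and 4 were higher, and over all genes the shares were 20.5% and 14.5%. At the edge of the threshold, PFKFB4 (-1.02) and SLC2A3 (-0.93) lay on either side of 2-fold lower, and PLOD1 (1.08) and SLC2A1 (0.98) on either side of 2-fold higher.

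**Figure D1:**
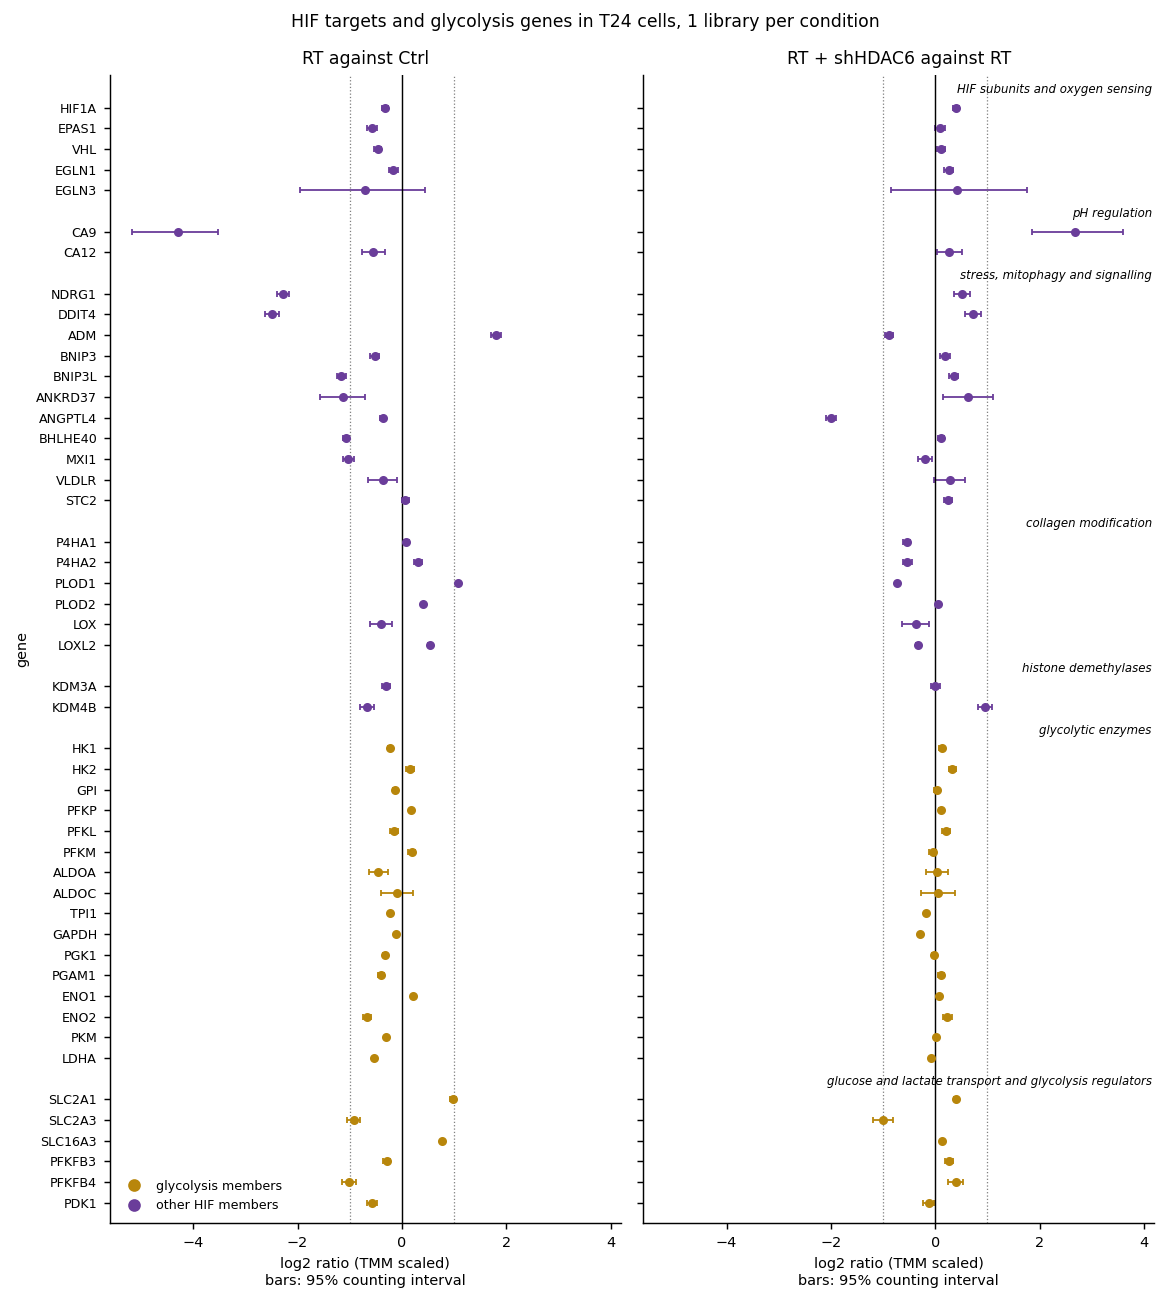
Log2 ratio of each of the 48 members (points, TMM-scaled) with its 95% counting interval (bars) for RT against Ctrl on the left and RT + shHDAC6 against RT on the right, 1 library per condition, grouped by role. Dotted lines mark 2-fold. CA9 stands at -4.29 on the left and 2.67 on the right, ANGPTL4 at -2.00 on the right, and the 16 glycolytic enzymes all lie between -0.67 and 0.33 in both panels.

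The 2 groups of members differed in range. The 22 glycolysis members had a median log2 ratio of -0.23, and 1 of them (PFKFB4, a regulator) was at least 2-fold lower. The other 26 HIF members had a median of -0.43, with 7 lower (26.9%) and 2 higher (7.69%). Within these, the mixed list of stress, mitophagy and signalling genes had a median of -1.03 with 6 of 11 called lower. The 6 were NDRG1, DDIT4, BNIP3L, ANKRD37 and the transcriptional repressors BHLHE40 and MXI1. The 6 collagen-modifying enzymes had a median of 0.35 with 5 of 6 above 0. Among the 7588 genes with at least 1000 counts in either library the median was 0.09, with 4416 above 0 and 3172 below 0. Over all genes 9.17% were called lower and 4.81% higher, and among those with at least 1000 counts 0.633% and 5.1%. The groups were drawn up with these ratios known, so nothing is read from the differences between them. All 16 glycolytic enzymes stayed short of 2-fold. Scaling by library totals in place of TMM lowered every RT against Ctrl ratio by 0.22, and the direction of STC2, P4HA1, HK2, PFKP, PFKM and ENO1 turned from higher to lower.

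**Figure D2:**
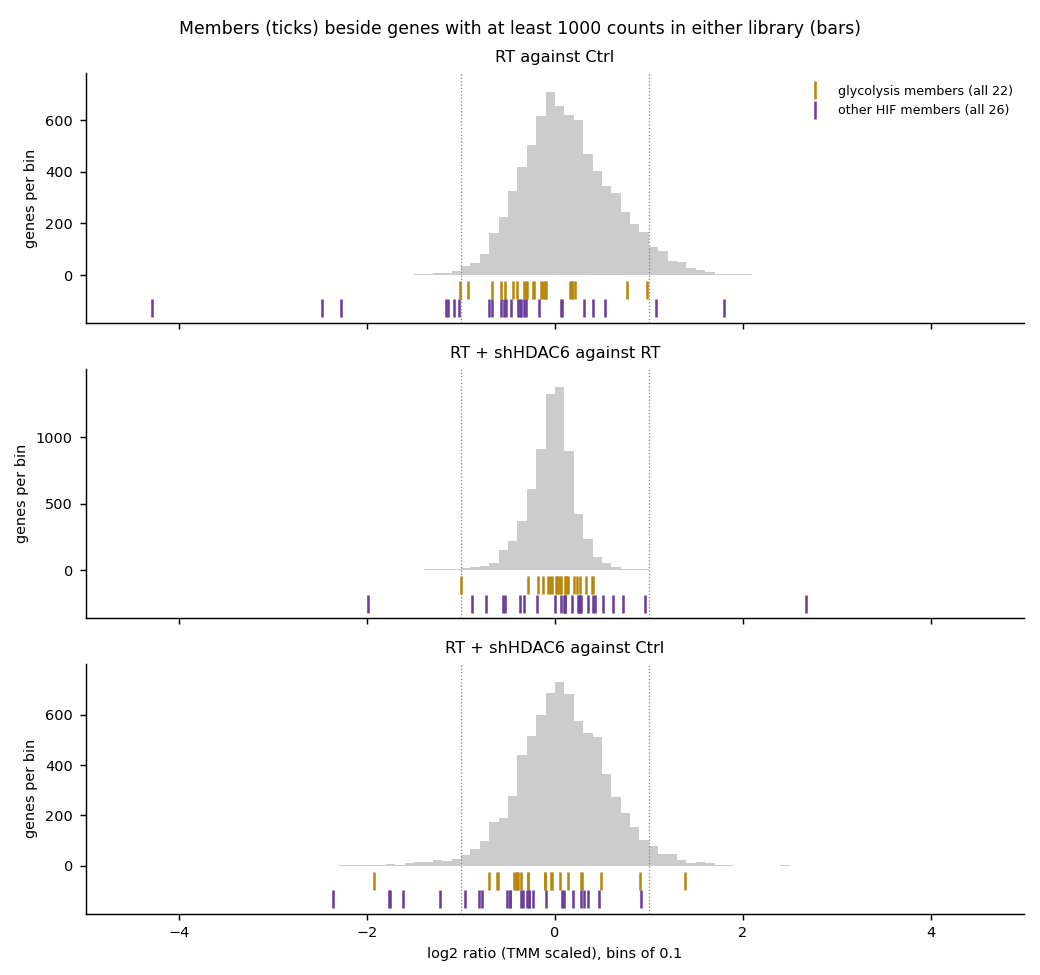
Log2 ratios of all 22 glycolysis members and all 26 other HIF members (ticks), beside the number of genes per bin of 0.1 among genes with at least 1000 counts in either library (bars), for the 3 comparisons. In the top panel 3 ticks lie below -2 (CA9, DDIT4 and NDRG1), and in the middle panel all but 3 ticks lie within 1 of 0. The ticks are not filtered by depth, and 40 of the 48 members reached 1000 counts in the top panel and 35 in the middle panel. CA9 in both panels and SLC2A3 in the middle panel fell short of that depth, so the bars are not genes of like depth to them.

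In the comparison of RT + shHDAC6 with RT, 33 members had a ratio above 0 and 15 below 0, with a median of 0.11 beside 0.00 over all genes. Over all genes with at least 10 counts, 9421 lay above 0 and 9592 below 0. With at least 1000 counts in either library, the median was 0.09 for 35 members and -0.02 over 6995 genes. CA9 was called higher, and ANGPTL4 and SLC2A3 were called lower, which is 2.08% and 4.17% of the members. Over 19013 genes, 4.35% were called higher and 4.78% lower, and among the 6995 genes with at least 1000 counts 0.329% and 1.16%. At that depth 0 of 35 members were higher and 1 (ANGPTL4) was lower. At 1.5-fold, 4 members were higher (CA9, KDM4B, DDIT4 and ANKRD37) and 4 lower (ANGPTL4, SLC2A3, ADM and PLOD1), beside 10.1% and 9.93% of all genes. KDM4B (0.95) and ADM (-0.89) lay just short of 2-fold, and SLC2A3 (-1.004) lay just past it. Both comparisons use the same RT library, so a deviation of that library alone would enter them with opposite signs, and no agreement between them is read.

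For RT + shHDAC6 against Ctrl, SLC2A1 was called higher (2.08% of members), and CA9, NDRG1, DDIT4, ANGPTL4, MXI1 and SLC2A3 were called lower (12.5%). Over 20374 genes the shares were 4.91% and 10.5%, and among the 7616 with at least 1000 counts they were 3.26% and 1.92%. Of the 40 members at that depth, 1 was higher and 5 were lower. At 1.5-fold, 3 members were higher and 12 lower, beside 13.9% and 20.5% of all genes. Glycolysis members had a median of -0.20 and other HIF members a median of -0.32, beside -0.06 over all genes. With at least 1000 counts in either library, these medians were -0.20, -0.32 and 0.08.

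CA9, the membrane carbonic anhydrase that is among the most widely used markers of HIF activity, showed the largest ratio of the list. CA9 (ENSG00000107159, chromosome 9, 35673928 to 35681159) had 371 counts in Ctrl, 14 after RT and 93 in RT + shHDAC6. The RT library was thus far below the other two, and RT + shHDAC6 lay between RT and Ctrl. This was a log2 ratio of -4.29 (limits -5.18 to -3.53) for RT against Ctrl, 19.6-fold lower. Among the 12670 genes with at least 100 counts in either library, 1 gene had a lower ratio. The ratio for RT + shHDAC6 against RT was 2.67 (limits 1.85 to 3.60), 6.36-fold higher, and RT + shHDAC6 remained at 32.5% of the Ctrl level. The neighbour ARHGEF39 overlaps 35.7% of the CA9 exon length on the opposite strand, and its own counts were 1362, 1370 and 1588. CA12, a second membrane carbonic anhydrase, was read 521 times in Ctrl, 264 times after RT and 332 times in RT + shHDAC6, with log2 ratios of -0.55 for RT against Ctrl and 0.27 in RT + shHDAC6 against RT. In a measure that needs no scaling between libraries, CA9 made up 41.6% of the reads on CA9 and CA12 in Ctrl, 5.04% after RT (limits 2.78% to 8.31%) and 21.9% in RT + shHDAC6.

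DDIT4 (REDD1), an inhibitor of mTORC1 signalling, and NDRG1, a stress-response gene and established hypoxia marker, were the next lowest in RT. DDIT4 (ENSG00000168209, chromosome 10, 72273919 to 72276036) stood at 86.2 CPM in Ctrl, 15.4 CPM after RT and 25.5 CPM in RT + shHDAC6. Its log2 ratio was -2.48 (limits -2.62 to -2.35) for RT against Ctrl and 0.72 (limits 0.57 to 0.88) in RT + shHDAC6 against RT. NDRG1 (ENSG00000104419, chromosome 8, 133237175 to 133302022) stood at 93.6 CPM in Ctrl, 19.3 CPM after RT and 27.4 CPM in RT + shHDAC6. Its ratios were -2.28 (limits -2.40 to -2.16) and 0.51 (limits 0.37 to 0.66). For both genes RT was the lowest library, and RT + shHDAC6 stayed at 29.6% (DDIT4) and 29.3% (NDRG1) of the Ctrl level. In RT against Ctrl, 8 of the 12670 genes with at least 100 counts had a lower ratio than DDIT4 and 13 a lower ratio than NDRG1.

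BNIP3 and BNIP3L (NIX) are mitophagy receptors that sit on the outer mitochondrial membrane. BNIP3L had 118 CPM in Ctrl, 53.0 CPM after RT and 67.7 CPM in RT + shHDAC6, with log2 ratios of -1.16 (limits -1.24 to -1.08) for RT against Ctrl and 0.35 in RT + shHDAC6 against RT. BNIP3 had 75.8, 52.7 and 59.9 CPM, and its ratio for RT against Ctrl was -0.52. The share of BNIP3L in the reads of the pair was 61.0% in Ctrl, 50.1% after RT and 53.1% in RT + shHDAC6, so the pair did not move by the same factor.

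The transcriptional repressors among the HIF targets were also lower in RT. BHLHE40 (DEC1), a basic helix-loop-helix repressor, had 263 CPM in Ctrl, 125 CPM after RT and 135 CPM in RT + shHDAC6, a log2 ratio of -1.07 (limits -1.12 to -1.02) for RT against Ctrl. MXI1, an antagonist of MYC, had 58.1, 28.5 and 24.9 CPM, with ratios of -1.03 (limits -1.14 to -0.92) for RT against Ctrl and -0.19 (limits -0.33 to -0.06) in RT + shHDAC6 against RT. MXI1 was thus lowest in RT + shHDAC6. ANKRD37, an ankyrin repeat protein, had only 181, 61 and 98 counts, and 40.4% of its exon length overlaps UFSP2 on the opposite strand. Its ratio for RT against Ctrl was -1.13 (limits -1.58 to -0.71). With DESeq2 size factors MXI1 reached -0.97 and PFKFB4 -0.96, short of 2-fold.

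ADM and ANGPTL4 encode secreted signals. ADM was called higher in RT against Ctrl, as was PLOD1, and ANGPTL4 was called lower in RT + shHDAC6 against RT, as was SLC2A3. ADM (ENSG00000148926, chromosome 11, 10305073 to 10307397), the vasodilator peptide adrenomedullin, had 30.4 CPM in Ctrl, 106 CPM after RT and 57.5 CPM in RT + shHDAC6. RT was the highest of the 3 libraries, with a log2 ratio of 1.80 (limits 1.71 to 1.90) over Ctrl, and RT + shHDAC6 stood at -0.89 (limits -0.97 to -0.81) against RT. ANGPTL4 (ENSG00000167772, chromosome 19, 8363289 to 8374370), an inhibitor of lipoprotein lipase, had 183 CPM in Ctrl, 142 CPM after RT and 35.6 CPM in RT + shHDAC6. RT + shHDAC6 was thus the lowest library, with ratios of -2.00 (limits -2.09 to -1.91) against RT and -2.37 (limits -2.45 to -2.28) against Ctrl. Among 12066 genes with at least 100 counts in RT or RT + shHDAC6, 47 had a lower ratio than ANGPTL4. VLDLR, a lipoprotein receptor, and STC2, a secreted glycoprotein, differed little in RT, with ratios of -0.37 (limits -0.65 to -0.09) and 0.07 (limits -0.00 to 0.14) against Ctrl.

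The collagen-modifying members were mostly above 0 in RT against Ctrl, where P4HA1 turned with library totals, and mostly below 0 in RT + shHDAC6 against RT. PLOD1 and PLOD2 hydroxylate lysines of collagen, P4HA1 and P4HA2 are subunits of the prolyl hydroxylase of collagen, and LOX and LOXL2 oxidise lysines for crosslinking. PLOD1 (ENSG00000083444, chromosome 1, 11934205 to 11975538) had 305 CPM in Ctrl, 646 CPM after RT and 389 CPM in RT + shHDAC6. Its log2 ratios were 1.08 (limits 1.05 to 1.11) for RT against Ctrl and -0.73 (limits -0.76 to -0.70) in RT + shHDAC6 against RT, and with library totals the first was 0.86, short of 2-fold. PLOD2 had 438, 580 and 606 CPM, with ratios of 0.40 and 0.06, so PLOD1 made up 41.1% of the reads of the pair in Ctrl, 52.7% after RT and 39.1% in RT + shHDAC6. For RT + shHDAC6 against RT, 5 of the 6 genes lay below 0, with P4HA1 at -0.55, P4HA2 at -0.53, LOX at -0.38 and LOXL2 at -0.33, and a median of -0.46. For RT against Ctrl, LOXL2 was at 0.53, P4HA2 at 0.30, P4HA1 at 0.07 and LOX at -0.40 (511 counts in Ctrl and 287 in RT).

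The subunits and sensors of the HIF pathway showed smaller ratios than the strongest targets. HIF1A (ENSG00000100644, chromosome 14, 61695513 to 61748259) had 144 CPM in Ctrl, 114 CPM after RT and 151 CPM in RT + shHDAC6. Its log2 ratios were -0.33 (limits -0.38 to -0.27) for RT against Ctrl and 0.40 (limits 0.34 to 0.46) for RT + shHDAC6 against RT. EPAS1 had 66.9, 44.9 and 47.9 CPM, with ratios of -0.57 (limits -0.66 to -0.48) and 0.09 (limits -0.01 to 0.19). EPAS1 took 31.8% of the reads on the alpha subunits in Ctrl, 28.2% after RT and 24.1% in RT + shHDAC6. VHL was at -0.47 and 0.11, and EGLN1 at -0.16 and 0.26. A gene that GENCODE release 44 places on the same strand covers 55.8% of the EGLN1 exon length but is not in the count table. EGLN3 had 22, 10 and 14 counts, and intervals that held 0 in all 3 comparisons. Of the histone demethylases that need oxygen, KDM3A was at -0.30 and 0.00, and KDM4B, with 1392, 645 and 1305 counts, at -0.67 (limits -0.81 to -0.54) and 0.95 (limits 0.82 to 1.09).

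Among 14 other regulators of the pathway, including ARNT, HIF1AN and the partners of VHL, the median ratio for RT against Ctrl was 0.00, and 0 were called higher and 1 lower. That gene was HIF3A, with 14 counts in Ctrl and 3 in RT. The shares were 0% higher and 7.14% lower, beside 4.81% and 9.17% of all genes. Of 30 other hypoxia-inducible genes, 28 had at least 10 counts in Ctrl or RT, with a median of -0.33, 2 called higher and 3 lower. These are 7.14% and 10.7%, beside 4.81% and 9.17% of all genes, so nothing is read from the counts. TFRC, the transferrin receptor, had 336 CPM in Ctrl, 984 CPM after RT and 997 CPM in RT + shHDAC6, a ratio of 1.55 (limits 1.52 to 1.58) for RT against Ctrl. The repressor BHLHE41 (DEC2), with 521, 182 and 274 counts, was at -1.08 (limits -1.33 to -0.84), and PNRC1, a nuclear receptor coactivator, was at -1.07 (limits -1.20 to -0.95). The remaining lower gene was RORA, a nuclear receptor, with 43 counts in Ctrl, 14 after RT and 30 in RT + shHDAC6. In RT + shHDAC6 against RT the same list of genes had a median of 0.13, with 1 (RORA) called higher and 1 lower. Each is 3.57% of the list, beside 4.35% and 4.78% of all genes. The histone demethylase KDM5B was lower in RT + shHDAC6 than in Ctrl, at -1.33 (limits -1.42 to -1.25).

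Glycolysis begins with glucose uptake, and the glucose transporters had the widest ratios of the 22 glycolysis members in RT + shHDAC6 against Ctrl. SLC2A1 (GLUT1; ENSG00000117394, chromosome 1, 42925353 to 42958893), the main glucose transporter of most cultured carcinoma cells, had 106 CPM in Ctrl, 210 CPM after RT and 277 CPM in RT + shHDAC6. SLC2A3 (GLUT3; ENSG00000059804, chromosome 12, 7919230 to 8019007), a transporter of high affinity for glucose, had 38.3, 20.2 and 10.1 CPM. The order of the libraries was thus opposite for these transporters. SLC2A1 had log2 ratios of 0.98 (limits 0.93 to 1.04) for RT against Ctrl and 0.40 (limits 0.36 to 0.45) in RT + shHDAC6 against RT, and SLC2A3 of -0.93 (limits -1.06 to -0.80) and -1.004 (limits -1.19 to -0.82). Against Ctrl, RT + shHDAC6 reached 1.38 (limits 1.33 to 1.43) for SLC2A1 and -1.93 (limits -2.10 to -1.76) for SLC2A3. The share of SLC2A1 in the reads of the pair needs no scaling, and was 73.5% in Ctrl (limits 72.4% to 74.5%), 91.2% in RT (90.6% to 91.8%) and 96.5% in RT + shHDAC6 (96.1% to 96.8%).

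**Figure D3:**
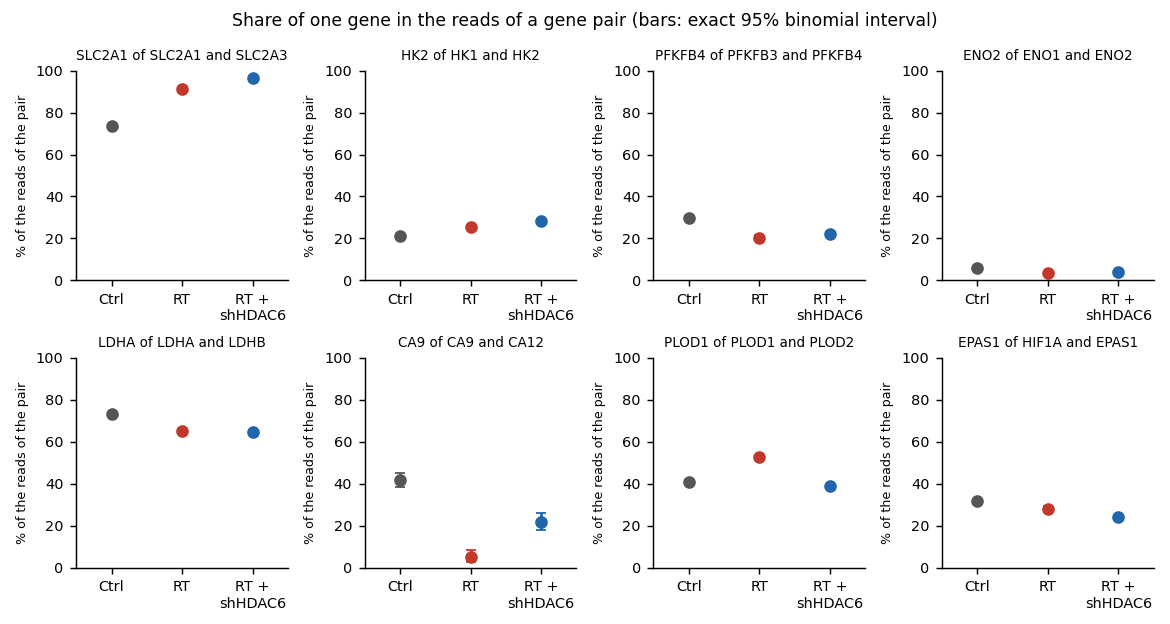
Share of 1 gene in the summed reads of a gene pair, in percent, in Ctrl, RT and RT + shHDAC6 (points), with exact 95% binomial intervals (bars, mostly smaller than the points). SLC2A1 takes 73.5%, 91.2% and 96.5% of the reads of the pair with SLC2A3, and CA9 takes 41.6%, 5.04% and 21.9% of the pair with CA12.

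Of the enzymes that trap and commit glucose, hexokinases HK1 and HK2 phosphorylate glucose, and the phosphofructokinases PFKP, PFKL and PFKM carry out the committed step. HK1 had 279, 239 and 260 CPM in Ctrl, RT and RT + shHDAC6, and HK2 had 73.8, 82.3 and 103 CPM. HK2 took 20.9% of the hexokinase reads in Ctrl (limits 20.3% to 21.6%), 25.6% in RT (24.8% to 26.5%) and 28.5% in RT + shHDAC6 (27.7% to 29.2%). PFKP was the most counted phosphofructokinase, with 69.8%, 71.8% and 72.4% of the reads of the family. For RT against Ctrl the log2 ratios were 0.18 for PFKP, -0.15 for PFKL and 0.19 for PFKM, and GPI, the isomerase between these steps, was at -0.13. PFKFB3 and PFKFB4 make fructose 2,6-bisphosphate, the activator of phosphofructokinase. PFKFB4 had 42.0, 20.8 and 27.3 CPM, with ratios of -1.02 (limits -1.14 to -0.89) for RT against Ctrl and 0.39 (limits 0.25 to 0.54) in RT + shHDAC6 against RT. PFKFB3 was at -0.29 and 0.26, and the share of PFKFB4 in the pair was 29.7% in Ctrl, 20.4% after RT and 21.9% in RT + shHDAC6.

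The highest levels per exon length lay in the lower steps of the pathway. GAPDH, which makes the first NADH of the pathway, stood at 8092 TPM in Ctrl, 6005 TPM after RT and 5287 TPM in RT + shHDAC6, the highest TPM of the glycolysis members in each library. TPI1, PKM, LDHA and ENO1 followed, between 784 and 1632 TPM over the 3 libraries. At the low end, ALDOC stood at 7.005 to 9.33 TPM. ALDOA, the aldolase usually abundant in cultured cells, was listed with only 714, 386 and 413 counts. Another gene on the same strand, ENSG00000285043, covers 42.8% of the ALDOA exon length and had 226, 210 and 171 counts, so the ALDOA level as counted is uncertain. TPM is scaled to each library's own total, so small differences between libraries can have another sign in TPM than after TMM scaling, as for ENO1.

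**Figure D4:**
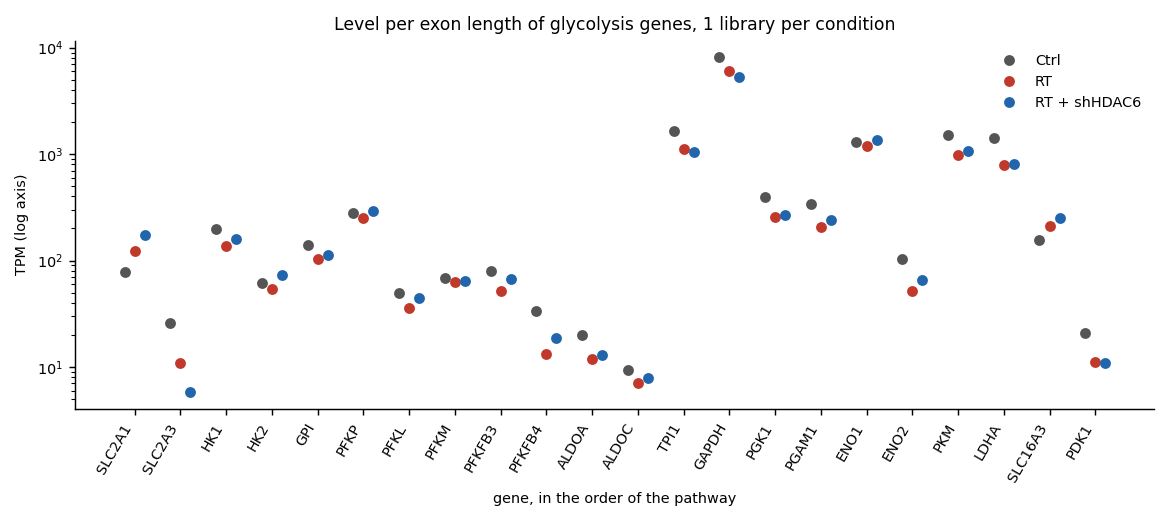
Level of the 22 glycolysis members in TPM on a log axis, in the order of the pathway from glucose uptake to lactate export, with 1 point per library (Ctrl, RT and RT + shHDAC6). GAPDH is highest at 5287 to 8092 TPM, and SLC2A1 and SLC2A3 show opposite orders of the libraries.

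Most lower-step enzymes were modestly lower in RT. For RT against Ctrl the log2 ratios were -0.23 for TPI1, -0.11 for GAPDH, -0.33 for PGK1, -0.40 for PGAM1, -0.30 for PKM and -0.53 for LDHA, and all 6 counting intervals lay below 0. These 6 genes stayed below 0 under every scaling tried. ENO2 had 4084 counts in Ctrl, 1900 after RT and 2330 in RT + shHDAC6, a ratio of -0.67 (limits -0.75 to -0.59) for RT against Ctrl that was the lowest of the 16 enzymes. ENO1 was at 0.21, and the share of ENO2 in the reads on ENO1 and ENO2 was 6.11% in Ctrl, 3.42% after RT and 3.82% in RT + shHDAC6. Pseudogene copies listed apart in the table had counts equal to 1.07%, 0.813% and 0.832% of the GAPDH count, and to 2.54%, 3.74% and 2.18% of the PGAM1 count. The 16 enzymes together took 1.38% of all counts in Ctrl, 1.05% after RT and 1.06% in RT + shHDAC6. These shares are relative to library totals and not TMM-scaled. Library totals shift every RT against Ctrl log2 ratio by -0.22 from TMM, so the shares fall further than the TMM ratios above. The sum also includes ALDOA, whose counted level is uncertain.

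LDHA turns pyruvate into lactate, and of the 16 enzymes ENO2 alone had a lower ratio in RT against Ctrl. LDHA (ENSG00000134333, chromosome 11, 18394560 to 18408425) had 1745 CPM in Ctrl, 1209 CPM after RT and 1150 CPM in RT + shHDAC6, with log2 ratios of -0.53 (limits -0.55 to -0.51) for RT against Ctrl and -0.07 (limits -0.09 to -0.05) in RT + shHDAC6 against RT. LDHB, its sister subunit, had 642, 649 and 625 CPM. LDHA thus made up 73.1% of the reads on LDHA and LDHB in Ctrl, 65.1% after RT and 64.8% in RT + shHDAC6. Another gene on the same strand, ENSG00000285854, covers 33.4% of the LDHB exon length, so the LDHB level and this share are uncertain. PDK1, the kinase that shuts pyruvate dehydrogenase, was at -0.57 (limits -0.67 to -0.48) for RT against Ctrl and -0.13 (limits -0.24 to -0.02) in RT + shHDAC6 against RT. SLC16A3 (MCT4), which exports lactate, had 295, 503 and 553 CPM, with ratios of 0.77 (limits 0.74 to 0.81) and 0.14 (limits 0.11 to 0.17). SLC16A3 and SLC2A1 were thus higher in RT than in Ctrl and the uptake transporter SLC2A3 lower, while 12 of the 16 enzymes had a ratio below 0 and 4 (HK2, PFKP, PFKM and ENO1) a ratio above 0 that turned with library totals.

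Comparing RT + shHDAC6 with RT, the 16 enzymes lay between -0.28 (GAPDH) and 0.33 (HK2), with a median of 0.04 and 11 above 0. The counting interval held 0 for 5 of them, and the direction of PFKM, PGK1 and LDHA turned with the scaling. Of 26 other glycolysis genes, which include tissue-restricted isoenzymes and further transporters, 16 had at least 10 counts in Ctrl or RT. In RT 3 of them (18.8%) were called higher and 0 lower, beside 4.81% and 9.17% of all genes. The 3 higher genes were ADPGK, an ADP-dependent glucokinase, at 1.36 (limits 1.29 to 1.42), the monocarboxylate transporter SLC16A1 (MCT1) at 1.20 (limits 1.17 to 1.23), and the transporter SLC2A8 at 1.01 (limits 0.85 to 1.17). SLC16A7 (MCT2) had 2002 counts in Ctrl, 2626 after RT and 760 in RT + shHDAC6, a ratio of -1.85 (limits -1.97 to -1.73) for RT + shHDAC6 against RT. With library totals SLC16A1 came to 0.99 and SLC2A8 to 0.79.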

How the data were processed

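RNA was measured in 3 libraries of T24 cells, 1 per condition, grouped by the sample labels. Per the labels and the study's methods, the authors used cutadapt for trimming, STAR (2.6.1a in the submitters' processing notes) for alignment to GRCh38 and featureCounts with GENCODE release 28, and deposited read counts per gene as whole numbers, not normalised. The labels and the methods name different library kits, and the methods give another STAR version. The strand setting and the treatment of multi-mapping reads are not given in the sources used here, so overlapping genes and near-identical copies may share counts. Of 58381 identifiers, 57754 matched GENCODE release 44, from which symbols, GRCh38 positions and exon lengths (for TPM) were taken. The rest held 0.0848% of counts. Library totals were 41811165 (Ctrl), 35959265 (RT) and 35424086 (RT + shHDAC6) counts. A count of 3, the limit that a count of 0 allows, equals 0.0662, 0.0894 and 0.0857 CPM.

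Log2 ratios were computed with edgeR 4.0.16 TMM factors (R 4.3.3), and a count of 0 was set to 0.5. Intervals are 95% Clopper-Pearson limits (scipy 1.17.1) and cover counting error only, not the variation between cultures. Reads lacking molecular identifiers cannot be taken as separate molecules, so these limits may be too narrow even for counting error. With 1 library per condition, edgeR's and DESeq2's tests have no residual degrees of freedom. NOISeq, which the study used, simulates technical noise, and a fixed 2-fold rule took its place. The ratio computation was tested on simulated data. Members, gene lists and alternatives were chosen with earlier results of these data known. All members were named. Other listed genes were mostly named when at least 2-fold different with at least 100 counts, or as sister isoforms of members. HIF3A, RORA, RPIA, PDK3 and PDK4 were named after their values were seen. ARNT and HIF1AN were named as examples of their list, and SLC2A4 and SLC2A6 to set beside SLC2A10 and SLC2A12. One listed gene is not reported here. Alternatives were library totals, DESeq2 1.42.0 size factors, upper quartile factors, 1.5-fold, other count minimums and another zero replacement. The shares at 1000 counts were added after the data were seen. Promoter windows came from RefSeq (GRCh38.p14).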

Additional observations from a re-analysis of the deposited data

How the results depend on the processing

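Of 576 values of single members under the alternatives, 407 stayed within their counting interval and 169 left it. The 576 include the other zero replacement, which could move no value because no member had a count of 0. The 407 therefore overstate how many values withstood a change of scaling. Members past 2-fold that changed sign numbered 0. That was fixed in advance, since the largest shift, -0.22 with library totals for RT against Ctrl, cannot turn a 2-fold difference. Library totals shifted all log2 ratios by -0.22 (RT against Ctrl), 0.08 (RT + shHDAC6 against RT) and -0.13 (RT + shHDAC6 against Ctrl). DESeq2 size factors shifted them by 0.06, -0.01 and 0.05, and upper quartile factors by -0.06, 0.03 and -0.03. The scaling factor itself sets these shifts.

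For RT against Ctrl, the median of glycolysis members was -0.44 with library totals, -0.17 with DESeq2 size factors and -0.28 with upper quartile factors, and that of other HIF members -0.65 with library totals. Glycolysis members called higher numbered 1 with DESeq2 size factors and 2 at 1.5-fold, and those called lower 2 with library totals, 0 with DESeq2 size factors and 3 at 1.5-fold. With library totals 1 other HIF member was called higher. For RT + shHDAC6 against RT, the glycolysis median was 0.14 with library totals, and 0 glycolysis members were called lower with library totals or upper quartile factors. Other HIF members called higher numbered 2 with library totals, 0 at a minimum of 100 counts, which leaves out CA9, and 4 at 1.5-fold, where 3 were called lower. For RT + shHDAC6 against Ctrl, the medians with library totals were -0.33 (glycolysis) and -0.45 (other HIF). At 1.5-fold, 2 glycolysis members were called higher and 4 lower, and 1 other HIF member was called higher and 8 lower.

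Members whose direction turned with the scaling numbered 6 (RT against Ctrl), 4 (RT + shHDAC6 against RT: KDM3A, PFKM, PGK1 and LDHA) and 5 (RT + shHDAC6 against Ctrl: HIF1A, EGLN1, PFKL, ALDOC and PFKFB3). No paired analysis was possible because each condition had 1 library, and for the same reason leaving out a replicate and the tests of edgeR and DESeq2 were not run. Depth limits CA9 in RT (14 counts) and EGLN3 (10 to 22 counts).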

Other observations

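Genes of the pathways next to glycolysis mostly stayed short of 2-fold, as did most of all genes. Over all genes, 9.17% were called lower and 4.81% higher in RT against Ctrl. In RT + shHDAC6 against RT the shares were 4.78% and 4.35%. Of 12 genes for the entry of pyruvate into mitochondria, 0 differed 2-fold in RT against Ctrl or in RT + shHDAC6 against RT, with medians of -0.15 and 0.09. The pyruvate dehydrogenase kinase PDK3 had 633 counts in Ctrl, 259 after RT and 310 in RT + shHDAC6, which gave a log2 ratio of -0.85 (limits -1.07 to -0.64) for RT against Ctrl. PDK4, another of these kinases, had 152, 66 and 110 counts. Both were named after their values were seen, beside the member PDK1 of the same family. In the pentose phosphate pathway 0 of 7 genes differed 2-fold in either comparison, and the medians were 0.02 and 0.01. RPIA, the ribose 5-phosphate isomerase, was highest in RT + shHDAC6, with 489, 445 and 695 counts. Of the gluconeogenesis genes, G6PC3, a glucose 6-phosphatase, stood at 1.003 (limits 0.92 to 1.08) for RT against Ctrl and at -0.43 for RT + shHDAC6 against RT, and with library totals the first was 0.78.

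Among glucose transporters outside the 48 genes, SLC2A12 had 128 counts in Ctrl, 60 after RT and 28 in RT + shHDAC6, which gave a log2 ratio of -1.82 (limits -2.46 to -1.22) for RT + shHDAC6 against Ctrl. TBPL1 overlaps 51.2% of the SLC2A12 exon length on the opposite strand. SLC2A10 had 112, 47 and 43 counts, a ratio of -1.01 (limits -1.55 to -0.49) for RT + shHDAC6 against Ctrl. In that comparison the other listed glucose transporters with at least 10 counts did not differ 2-fold. SLC2A8 was at 0.41, SLC2A6 at 0.02 and SLC2A4 at -0.68.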
